A study of Mus musculus with 2 samples.

Results

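Ribosome biogenesis and nucleolar genes were compared between microglia, the resident macrophages of the brain, from PARK7/DJ-1 knock-out (KO) and wildtype (WT) mice 24 h after lipopolysaccharide (LPS), a bacterial component that provokes systemic inflammation. The members were a list of 35 named genes, of which all 35 had at least 20 unique molecular identifiers (UMIs, tags that mark single transcript molecules) over both libraries, out of 15846 genes with any UMI. KO LPS came from mice with a gene-trap allele of Park7 on a C57BL/6NCrl background, and WT LPS from their littermates without it. All were LPS-injected and aged 3 to 4 months, and each library pooled 2 mice, 1 female and 1 male, whose CD11b+CD45int cells were sorted for Drop-seq, a droplet method that counts the 3' ends of transcripts. There was 1 library per genotype and no untreated library was used, so that no test between genotypes was possible, genotype and library cannot be told apart, and every interval below covers counting error only.

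A ribosome is built from ribosomal RNA and ribosomal proteins, and most of the assembly takes place in the nucleolus. There RNA polymerase I transcribes the long precursor of ribosomal RNA. Small nucleolar ribonucleoproteins (snoRNPs), which pair a protein core with a small guide RNA (snoRNA), then modify it, and separate sets of factors cut and fold it into the small and the large subunit. In macrophages, as in other cells, this programme is known to go with growth and with a high demand for new protein, and the transcription factor Myc is a known activator of many of its genes.

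Barcodes with at least 500 UMIs and 100 genes were taken as cells, which gave 320 cells and 381305 UMIs in KO LPS and 1427 cells and 1989011 UMIs in WT LPS. The median depth was 964 and 1065 UMIs per cell, and no cell barcode was shared between the libraries. CPM below means UMIs per 1e6 UMIs summed over the cells of a library. Each 3' end counts once whatever the length of the transcript. The targeted gene, Park7, was counted 323 times in WT LPS (162 CPM) and 1 time in KO LPS (2.62 CPM). All 16 microglial marker genes examined were present in both libraries and summed to 44345 CPM in KO LPS against 32635 CPM in WT LPS. Their level in cells was 1.13 times that of barcodes with 100 UMIs or fewer in KO LPS and 1.75 times in WT LPS. Presence alone therefore does not bear out the label of microglia, which rests on the sort. Markers of other cells were less abundant: neutrophil genes reached 70.9 CPM in WT LPS and had 0 UMIs in KO LPS (3 counts, taken as the floor for 0, are 7.87 CPM), while choroid plexus genes reached 2135 CPM in KO LPS against 15.1 CPM in WT LPS. Astrocyte genes (406 and 191 CPM) and endothelial genes (89.2 and 16.6 CPM) were also higher in KO LPS. The lists of monocytes, border macrophages, lymphocytes, oligodendrocytes, neurons and erythroid cells lay between 0 and 102 CPM in KO LPS and between 2.51 and 73.9 CPM in WT LPS.

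The sequences shown first are the promoter stretches of members that bear the E-box CACGTG, the core site of Myc and related factors. They were chosen after the levels of the members and of Myc, given further on, had been seen. RefSeq promoters (GRCm38.p6, 250 bases before to 50 bases after the start) were found for 30 of the 35 members. The motif, which reads the same on both strands, was present in 5 of them (16.7%), against 12.7% of the 6816 genes with at least 20 UMIs and a promoter and 7.15% of all 32851 promoters. The 5 windows, on the strand of the gene, hold the motif in capitals. It lies after the start given in that table, and its first base is at position 41 in Mybbp1a, 38 in Utp20, 18 in Wdr43, 3 in Pes1 and 24 in Nle1, counted from 1 at the start.
Mybbp1a (chr11:72441355-72441376, plus strand): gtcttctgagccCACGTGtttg
Utp20 (chr10:88826765-88826789, minus strand): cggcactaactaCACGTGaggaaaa
Wdr43 (chr17:71616220-71616249, plus strand): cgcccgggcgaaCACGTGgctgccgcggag
Pes1 (chr11:3963965-3963994, plus strand): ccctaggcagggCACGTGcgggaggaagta
Nle1 (chr11:82908355-82908384, minus strand): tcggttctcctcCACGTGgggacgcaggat

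On the log2 scale, KO LPS relative to WT LPS had a median of -1.05 in the 5 members with the E-box and -1.17 in the 25 without it. Of the 5, Nle1 had 0 UMIs in KO LPS, so that its ratio is a fitted value. Whether the motif goes with the ratio was not tested. The most counted member, Ncl, and the most counted member that was over 4-fold lower, Gnl3, hold no CACGTG in this window. Their 200 bases upstream of the start are shown instead, with the GC box (GGGCGG on either strand) in capitals, which occurs 3 times in Ncl and 6 times in Gnl3, overlapping matches counted.
Ncl (chr1:86359456-86359655, minus strand): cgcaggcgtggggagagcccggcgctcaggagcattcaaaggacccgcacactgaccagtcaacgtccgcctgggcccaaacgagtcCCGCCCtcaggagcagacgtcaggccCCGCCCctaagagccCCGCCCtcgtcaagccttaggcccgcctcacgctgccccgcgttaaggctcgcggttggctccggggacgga
Gnl3 (chr14:31019132-31019331, minus strand): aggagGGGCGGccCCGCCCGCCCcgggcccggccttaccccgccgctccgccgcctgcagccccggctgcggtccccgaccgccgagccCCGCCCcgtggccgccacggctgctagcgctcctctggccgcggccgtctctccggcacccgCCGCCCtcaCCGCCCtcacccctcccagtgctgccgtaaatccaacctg
The GC box was present in 22 of 30 member promoters (73.3%), close to the 70.5% of genes with at least 20 UMIs. The ETS site CCGGAAG was present on either strand in 8 members (26.7%, against 24.0% of genes) and TATAAA in 2 (6.67%, against 8.20%). Among 109 other ribosome biogenesis genes with a promoter, a list given further on, the ETS site was more frequent, at 45.0%. The E-box (19.3%), the GC box (68.8%) and TATAAA (6.42%) were nearer to the shares of genes.

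Members were lower in KO LPS almost throughout. Summed over the list, their level was 3037 CPM in KO LPS (95% Poisson interval 2865 to 3217, 1158 UMIs) and 7092 CPM in WT LPS (6975 to 7210, 14106 UMIs), which is 2.34-fold lower in KO LPS (exact conditional interval 2.20 to 2.48). Barcodes with 100 UMIs or fewer differed by 2.39-fold, as given further on, so the difference was not particular to cells. Of the 35 members, 34 were lower, while 50.7% of all 9085 genes with at least 20 UMIs were lower. At least 2-fold lower were 25 members (71.4%), against 16.8% of all genes, and 0 members were at least 2-fold higher, against 12.6% of all genes. The median log2 ratio was -1.17 for the members and -0.02 for all genes. Bop1 and Nle1 had 0 UMIs in KO LPS, so their fitted ratios are no bounds. With such genes set to the bound that 3 counts give, 23 members were at least 2-fold lower (16.1% of all genes) and the median was -1.06. The highest member alone did not make the sum, which was 2.34-fold lower without Ncl as well (2.19 to 2.51). When every cell was thinned to 500 UMIs, 28 members still had 20 UMIs and 15 of them were at least 2-fold lower, against 17.7% of all genes.

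**Figure D1:**
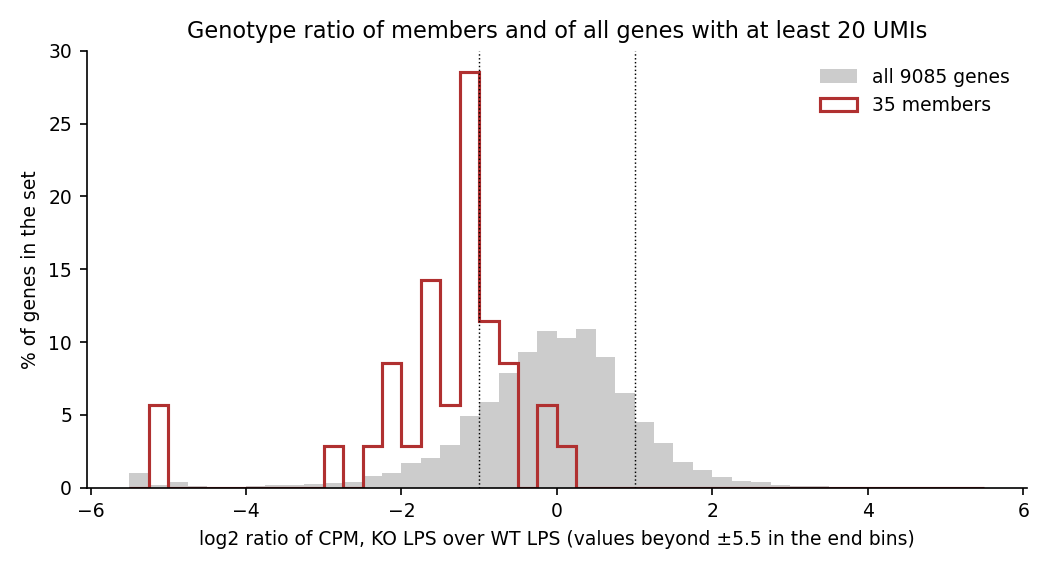
Share of genes (vertical axis, % of the set) by log2 ratio of CPM, KO LPS to WT LPS (horizontal axis), for all 9085 genes with at least 20 UMIs (grey) and for the 35 members (red outline), with dotted lines at a 2-fold difference. All genes centre near -0.02 and the members near -1.17; the 2 members at -5.20 and -5.10, Bop1 and Nle1, had 0 UMIs in KO LPS and their position depends on the prior count of 0.5.

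The ratio of genes depended on how much they were counted and, more strongly, on their span on the genome, so the members were set beside genes alike in each. Among genes with 200 UMIs or more, 13 of 18 members (72.2%) and 16.7% of 2462 genes were at least 2-fold lower, with medians of -1.13 and -0.14. Among genes with 100 to under 200 UMIs, 6 of 7 members and 14.4% of genes were, with medians of -1.59 and -0.04. The 10 members with fewer than 100 UMIs lay in bands where 4 of 7 (20 to 49 UMIs) and 2 of 3 (50 to 99 UMIs) were 2-fold lower, against 18.8% and 16.8% of genes. Short genes as a whole were lower in KO LPS: the median log2 ratio was -0.44 for genes that span under 10 kb and 0.50 for genes of 100 kb or more. Members are short, with a median span of 11.6 kb against 23.5 kb for all genes. Within the band under 10 kb, 11 of 15 members (73.3%) and 29.1% of genes were at least 2-fold lower, with medians of -1.62 and -0.44. Within 10 to 30 kb, the counts were 10 of 16 members (62.5%) and 17.9% of genes, with medians of -1.11 and -0.11. The members thus stood lower than genes of similar span in these bands, and the part that span has in the result was not tested.

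**Figure D2:**
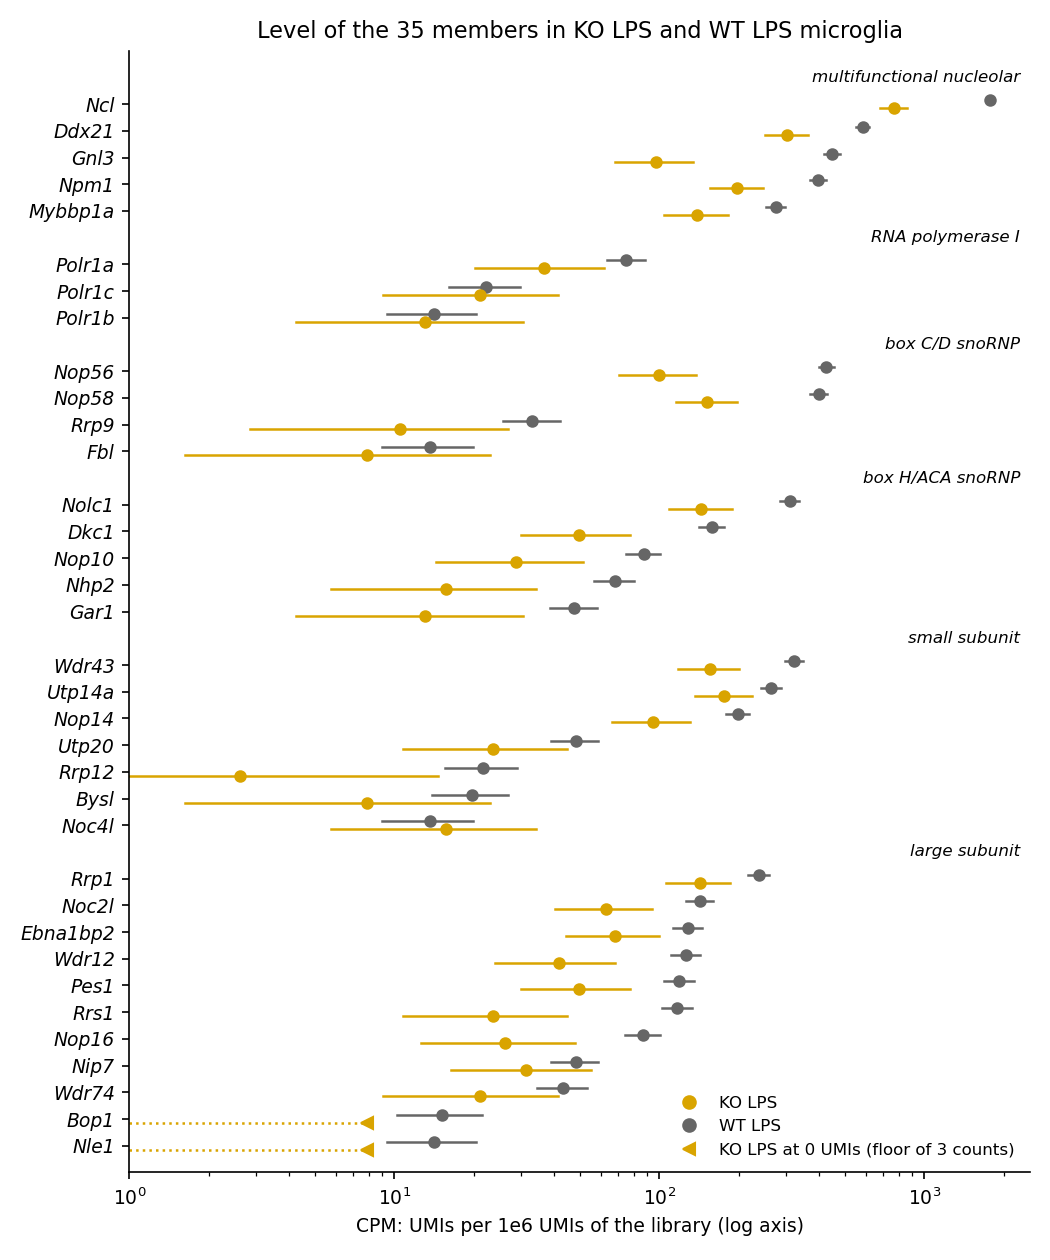
Level of each member in CPM (horizontal log axis) in KO LPS (yellow) and WT LPS (grey), grouped by role, with 95% Poisson intervals as lines, cut at 1 CPM. The WT LPS point lies to the right of the KO LPS point for 34 members and to the left for Noc4l; triangles mark the floor of 3 counts, 7.87 CPM, for Bop1 and Nle1, which had 0 UMIs in KO LPS.

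The multifunctional nucleolar proteins made up the largest share of member UMIs, with 1503 CPM in KO LPS against 3474 CPM in WT LPS (2.31-fold lower, 2.12 to 2.52). Ncl encodes nucleolin, an abundant RNA-binding protein of the nucleolus. It had 292 UMIs (140 cells) in KO LPS against 3519 UMIs (1023 cells) in WT LPS. Its level of 766 CPM (680 to 859) against 1769 CPM (1711 to 1829) was 2.31-fold lower in KO LPS (2.05 to 2.61). Npm1, which encodes the histone chaperone and ribosome export factor nucleophosmin, had 75 and 787 UMIs and was 2.01-fold lower (1.59 to 2.58); processed copies of this gene could share its counts. Gnl3 encodes nucleostemin, a nucleolar GTPase of growing cells. It had 37 and 893 UMIs, or 97.0 CPM (68.3 to 134) and 449 CPM (420 to 479), which was the largest difference of this group at 4.63-fold (3.33 to 6.62). The RNA helicase gene Ddx21, whose product links RNA polymerase I transcription with processing, was 1.92-fold lower (1.59 to 2.35), with 304 and 585 CPM. Mybbp1a, which encodes a Myb-binding protein of the nucleolus, was 1.97-fold lower (1.49 to 2.67), with 139 and 275 CPM. Both lay just short of the 2-fold limit, which Npm1 just passed.

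The 3 subunits of RNA polymerase I were sparsely counted. Summed, they stood at 70.8 CPM in KO LPS (27 UMIs) and 111 CPM in WT LPS (221 UMIs), 1.57-fold lower (1.05 to 2.44). Polr1a, the largest and catalytic subunit, had 14 and 149 UMIs and was 2.04-fold lower (1.18 to 3.82). Polr1b, the second subunit, had 5 and 28 UMIs, with a ratio of KO LPS over WT LPS of 0.931 (0.281 to 2.44). Polr1c, a subunit shared with RNA polymerase III, had 8 and 44 UMIs, with a ratio of 0.948 (0.386 to 2.04). At these counts a 2-fold difference of Polr1b or Polr1c in either direction lay within the interval, and the sign of both turned under other choices of cells. The interval of the sum also held the value of every group but the snoRNP proteins and, with every cell thinned to 500 UMIs, its log2 ratio went from -0.65 to -1.13.

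The snoRNP proteins carry out the modification step. The box C/D particle, which guides 2'-O-methylation of RNA, summed to 270 CPM in KO LPS against 873 CPM in WT LPS, 3.23-fold lower (2.65 to 3.98). Of its core scaffolds, Nop56 had 38 UMIs (32 cells) in KO LPS against 849 UMIs (540 cells) in WT LPS, at 99.7 CPM (70.5 to 137) and 427 CPM (399 to 457), a 4.28-fold difference (3.09 to 6.10). Its partner Nop58 had 58 and 795 UMIs and was 2.63-fold lower (2.01 to 3.49). Rrp9, the specific protein of the U3 particle, had 4 and 66 UMIs with a ratio of KO LPS over WT LPS of 0.316 (0.0837 to 0.848). The methyltransferase gene Fbl was hardly counted, with 3 and 27 UMIs, and its ratio of 0.580 (0.113 to 1.88) did not separate from 1.

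The box H/ACA particle guides the conversion of uridine to pseudouridine and is also part of telomerase. Its group, which here includes the snoRNP chaperone Nolc1, had all 5 members at least 2-fold lower, against 16.8% of all genes. Nop10, however, went from a log2 ratio of -1.59 to -0.71 with every cell thinned to 500 UMIs. The group summed to 252 CPM in KO LPS against 671 CPM in WT LPS, 2.67-fold lower (2.17 to 3.31). Nolc1 held 55 of its 96 UMIs in KO LPS and 617 of 1335 in WT LPS. Dkc1, the pseudouridine synthase, had 19 and 314 UMIs and was 3.17-fold lower (1.99 to 5.33). Of the small core proteins, Nhp2 had 6 and 135 UMIs (ratio 0.232, 0.0836 to 0.518), Gar1 had 5 and 95 UMIs (ratio 0.275, 0.0871 to 0.663) and Nop10 had 11 and 174 UMIs (ratio 0.330, 0.162 to 0.605). Their intervals overlap, and no order among them was detectable at this depth. Nolc1, a chaperone of snoRNPs, had 55 and 617 UMIs and was 2.15-fold lower (1.63 to 2.89).

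Factors of the small subunit summed to 475 CPM in KO LPS against 887 CPM in WT LPS (ratio 0.535, 0.456 to 0.624). At least 2-fold lower were 5 of the 7 (71.4%, against 16.8% of all genes). With every cell thinned to 500 UMIs, Rrp12 stayed past 2-fold, at a log2 ratio of -1.49. Nop14 (-0.64), Utp20 (-0.98), Wdr43 (-0.90) and Bysl (-0.61) then fell short of it. Wdr43, a protein of the complex that binds the nascent ribosomal RNA, had 59 and 640 UMIs and was 2.08-fold lower (1.59 to 2.76). Nop14 had 36 and 393 UMIs (2.09-fold lower, 1.49 to 3.03), and Utp20, a large scaffold of the processing complex, 9 and 96 UMIs (2.04-fold lower, 1.03 to 4.61). Utp14a, also of this complex, was nearer to WT LPS, at 176 CPM (136 to 223) against 265 CPM (243 to 289) or 1.51-fold lower (1.17 to 1.97). The late factors were sparse. Rrp12, which acts in maturation and export, had 1 UMI in KO LPS against 43 UMIs in WT LPS, a ratio of 0.121 (0.00300 to 0.713). Bysl had 3 and 39 UMIs, a ratio of 0.401 (0.0793 to 1.26). Noc4l, the partner of Nop14, was the single member with a higher level in KO LPS, with 6 and 27 UMIs and a ratio of 1.16 (0.391 to 2.87), which did not separate from 1. Its log2 ratio of 0.21 turned to -0.57 with every cell thinned to 500 UMIs and to -0.49 without the cells that held a mitotic UMI.

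Factors of the large subunit summed to 467 CPM in KO LPS against 1075 CPM in WT LPS, 2.30-fold lower (1.98 to 2.70), and 8 of the 11 were at least 2-fold lower (72.7%, against 16.8% of all genes), or 6 with Bop1 and Nle1 at their bounds (against 16.1%). Pes1, Bop1 and Wdr12 form a complex needed for processing of the large subunit RNA. Pes1 had 19 and 236 UMIs (ratio 0.420, 0.248 to 0.671) and Wdr12 had 16 and 250 UMIs (ratio 0.334, 0.188 to 0.553). Bop1 had 0 UMIs in KO LPS against 30 UMIs in WT LPS, or at least 1.92-fold lower when 3 counts are taken as the floor. All members of this complex were thus lower. Rrs1, a regulator of ribosome synthesis that helps to bring in the 5S particle, had 9 UMIs in KO LPS against 232 UMIs in WT LPS, at 23.6 CPM (10.8 to 44.8) and 117 CPM (102 to 133), the largest fold of this group at 4.94 (2.56 to 10.9) among genes above 0 UMIs. Nop16, a nucleolar protein of the large subunit pathway, had 10 and 173 UMIs and was 3.32-fold lower (1.76 to 7.04).

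The other large subunit factors are given next. Noc2l, which is also known as an inhibitor of histone acetylation, had 24 and 282 UMIs and was 2.25-fold lower (1.48 to 3.57). Wdr74 had 8 and 86 UMIs and was 2.06-fold lower (1.00 to 4.93). Ebna1bp2 was 1.88-fold lower (1.25 to 2.93) with 26 and 255 UMIs, and Rrp1 was 1.67-fold lower (1.26 to 2.26) with 54 and 471 UMIs. Both had intervals above 1, although neither reached the 2-fold limit. Nip7 had 12 and 96 UMIs, a ratio of 0.652 (0.326 to 1.19) that did not separate from 1. Nle1, the mouse Notchless gene, had 0 and 28 UMIs, at least 1.79-fold lower against the same floor of 3 counts per library.

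Several members share a feature that the list did not use, in that snoRNA genes lie within their span. RefSeq places snoRNA genes inside 6 of the 35 members (17.1%), against 2.99% of all genes with at least 20 UMIs. These were Ncl, Gnl3, Nop56, Nop58, Dkc1 and Wdr43. All 6 were at least 2-fold lower in KO LPS, with a median log2 ratio of -1.52, against -1.06 for the other 29 members. Wdr43 only just passed this limit (-1.05). It fell short with every cell thinned to 500 UMIs (-0.90) and in cells with at least 1000 UMIs (-0.99). Of all 272 genes with a snoRNA inside, 25.4% were at least 2-fold lower and the median was -0.20. Non-coding transcripts known as hosts of snoRNAs were lower too. Of 15 such transcripts with at least 20 UMIs, 12 were at least 2-fold lower (80.0%, against 16.8% of all genes) and 0 at least 2-fold higher (against 12.6%), and their sum was 551 CPM in KO LPS against 1771 CPM in WT LPS (3.22-fold lower, 2.80 to 3.71). Gas5, the most counted, had 89 and 1730 UMIs, a ratio of 0.268 (0.214 to 0.332). Snhg15, listed under its older name Gm11974, was lowest of those with 50 UMIs (3 and 102 UMIs, ratio 0.153, 0.0311 to 0.461), and Snhg20, listed as 2810008D09Rik, highest (31 and 139 UMIs, ratio 1.16, 0.762 to 1.73).

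The rest of the pathway was lower to a smaller extent. Of 144 other ribosome biogenesis genes, 140 were in the matrices and 138 had at least 20 UMIs. Among these 138, 122 were lower in KO LPS (against 50.7% of all genes), 45 were at least 2-fold lower (32.6%, against 16.8%) and 0 were at least 2-fold higher (against 12.6%). Their median log2 ratio was -0.61, and their sum was 7107 CPM in KO LPS (6842 to 7380) and 11405 CPM in WT LPS (11257 to 11555), 1.60-fold lower (1.54 to 1.67). By role, at least 2-fold lower were 5 of 16 RNA polymerase I subunits and factors, 4 of 10 snoRNP assembly factors, 16 of 52 small subunit factors, 17 of 47 large subunit factors and 3 of 13 subunits and cofactors of the exosome, the complex that trims RNA ends. The sums of these groups were between 1.49-fold and 1.71-fold lower.

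Within each of these roles the genes ranged from far lower to slightly higher. Polr2f, a subunit shared by the RNA polymerases, had 3 and 84 UMIs (ratio 0.186, 0.0377 to 0.563), while the terminator Ttf1 had a ratio of 1.30 (0.978 to 1.72). Among snoRNP assembly genes, the core protein gene Snu13, listed as Nhp2l1, had 3 and 73 UMIs (ratio 0.214, 0.0432 to 0.652) and Pih1d1 a ratio of 1.40 (0.734 to 2.50). Rrp7a was lowest of the small subunit genes with 50 UMIs (2 and 52 UMIs, ratio 0.201, 0.0237 to 0.762) and Imp3 highest (1.30, 0.651 to 2.43). Wdr18 was lowest of the large subunit genes (1 and 54 UMIs, ratio 0.0966, 0.00240 to 0.562) and the SUMO protease gene Senp3 highest (1.49, 0.973 to 2.22). Of the exosome list, the cofactor gene Mphosph6 was lowest (2 and 139 UMIs, ratio 0.0751, 0.00900 to 0.276) and Exosc4 highest (1.30, 0.704 to 2.28). The intervals of the 5 highest genes all held 1.

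**Figure D3:**
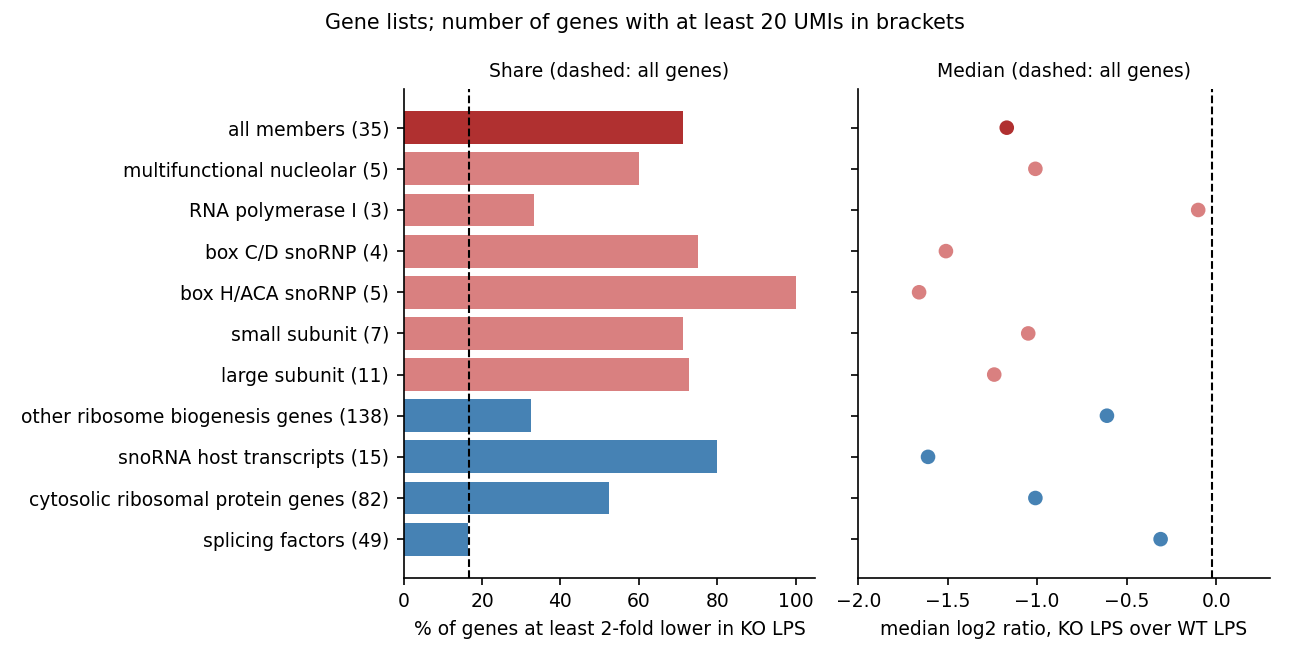
Share of genes at least 2-fold lower in KO LPS (left, %) and median log2 ratio, KO LPS to WT LPS (right) for the members, their role groups and 4 related lists, with the number of genes with at least 20 UMIs in brackets and dashed lines for all 9085 genes (16.8% and -0.02). Members lie at 71.4%, other ribosome biogenesis genes at 32.6% and splicing factors at 16.3%.

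Cytosolic ribosomal protein genes, whose products the pathway assembles, had a median log2 ratio of -1.01, and 43 of 82 (52.4%) were at least 2-fold lower. Their sum was 13669 CPM in KO LPS against 26597 CPM in WT LPS, 1.95-fold lower (1.89 to 2.00). Splicing factors of the Srsf, Hnrnp, Sf3 and Snrp families, also nuclear RNA-binding proteins, had 8 of 49 (16.3%) at least 2-fold lower, against 16.8% of all genes. As a list they were slightly lower, with 36 of 49 lower, a median log2 ratio of -0.31 and a sum 1.18-fold lower (1.14 to 1.22).

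Regulators of growth and ribosome synthesis did not move as a block. Myc had 8 UMIs (6 cells) in KO LPS against 170 UMIs (138 cells) in WT LPS, at 21.0 CPM (9.06 to 41.3) and 85.5 CPM (73.1 to 99.3), 4.07-fold lower (2.02 to 9.59). It was lowest of the 16 regulators with at least 20 UMIs, of which 3 (18.8%) were at least 2-fold lower, against 16.8% of all genes, and 5 at least 2-fold higher, against 12.6%. Its dimer partner Max had a ratio of 1.01 (0.513 to 1.85). Mxi1, which encodes an antagonist of Myc, was higher in KO LPS, with 26 and 54 UMIs and a ratio of 2.51 (1.51 to 4.08). Tsc1, a brake on the mTOR growth pathway, was highest of those with 50 UMIs, with 39 and 77 UMIs and a ratio of 2.64 (1.75 to 3.93). Mitotic genes stood at 328 CPM in KO LPS against 81.4 CPM in WT LPS, but 83 of the 125 UMIs of KO LPS came from 1 cell, and the share of cells with a mitotic UMI was 4.38% (14 cells) and 6.03% (86 cells). Without these cells the summed member level had a log2 ratio of -1.21.

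The summed level was then compared within cells of each sex. Cells with UMIs of Xist, the RNA of the inactive X chromosome, and without Y-linked UMIs come mostly from the female mouse of each library, although free RNA can mislabel cells. In these, 200 cells of KO LPS held 2959 CPM of members (2753 to 3175) and 565 cells of WT LPS 7607 CPM (7418 to 7800), 2.57-fold lower (2.39 to 2.77), and 24 of 29 members with at least 20 UMIs were at least 2-fold lower, against 17.9% of 7130 genes. Cells that held Y-linked but not Xist UMIs numbered 12 in KO LPS and 195 in WT LPS. Their member levels were 3323 CPM (2450 to 4406) and 6434 CPM (6153 to 6723), 1.94-fold lower (1.45 to 2.63), with 48 member UMIs behind the KO LPS value. Of 22 members with at least 20 UMIs in these cells, 17 were at least 2-fold lower, against 34.2% of 3377 genes, in part through fitted ratios at 0 UMIs in KO LPS. Single members rest on few UMIs in KO LPS there, so that their spread cannot be read as a difference among them. Ncl had a log2 ratio of -0.24 (19 and 479 UMIs) and Ddx21 of -0.27 (7 and 180 UMIs), while Gnl3 was at -1.5 (2 and 122 UMIs), Npm1 at -2.18 (1 and 100 UMIs) and Nop56 at -2.15 (1 and 98 UMIs). The summed member level of KO LPS thus lay below that of WT LPS in both classes, and their intervals did not meet.

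**Figure D4:**
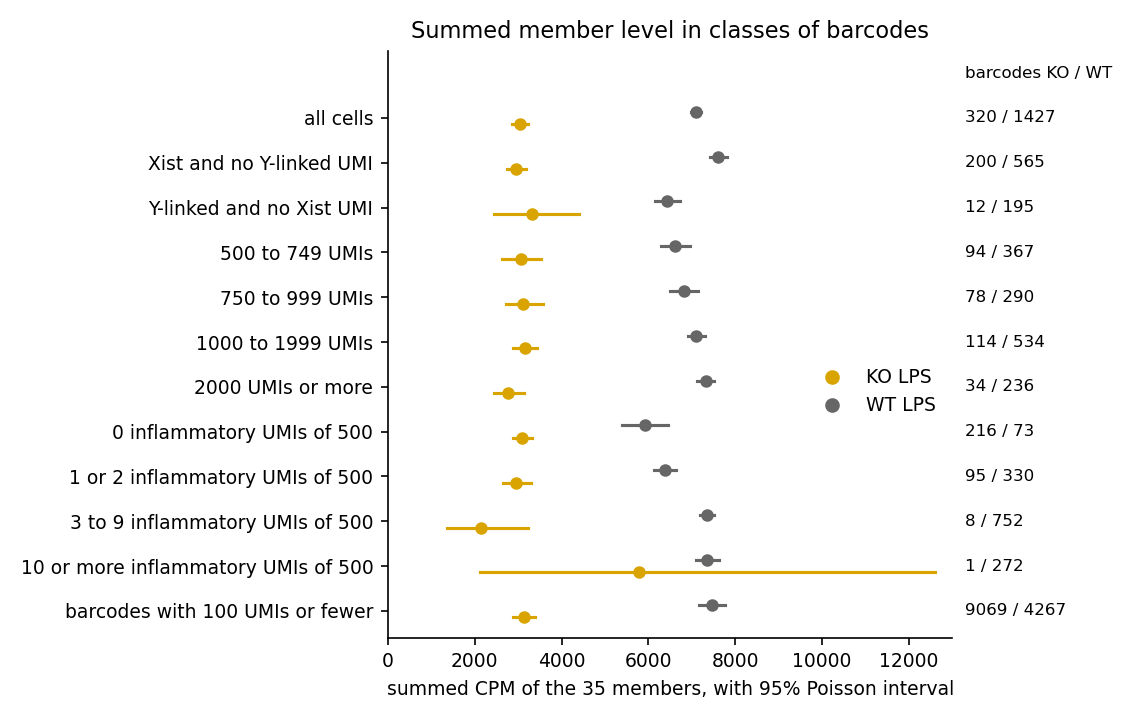
Summed level of the 35 members in CPM (horizontal axis) with 95% Poisson intervals in KO LPS (yellow) and WT LPS (grey), for all cells, cells by sex-linked UMIs, by depth and by inflammatory UMIs among 500 UMIs of the cell, and barcodes with 100 UMIs or fewer; the numbers of barcodes are at the right. KO LPS lies below WT LPS in each class, and the intervals meet in the class of 10 or more inflammatory UMIs, where KO LPS had 1 cell.

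The member level varied little with the depth of the cell. In cells of 500 to under 750 UMIs the members stood at 3054 CPM in KO LPS against 6618 CPM in WT LPS (ratio 0.461, 0.393 to 0.539), and in cells of 2000 UMIs or more at 2773 CPM and 7315 CPM (ratio 0.379, 0.334 to 0.429). From the shallowest to the deepest of these classes, the level was 1.11 times as high in WT LPS (1.04 to 1.17) and 0.908 times in KO LPS (0.748 to 1.10).

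In WT LPS the member level went with inflammatory transcripts to a small degree. Cells were grouped by the UMIs of 32 inflammatory genes, among them Saa3, Lcn2 and Tnf, in a draw of 500 UMIs per cell; these groups are ranges of a count, not cell types. In the 73 WT LPS cells with 0 inflammatory UMIs, members stood at 5911 CPM (5397 to 6460), and in the 272 cells with 10 or more at 7350 CPM (7090 to 7617), a ratio of 1.24 (1.13 to 1.37). Of 25 members with at least 20 UMIs in these cells, 19 were higher in the inflammatory class, against 54.1% of 4563 genes. At least 2-fold higher were 3 members, Rrs1, Ebna1bp2 and Nop16, named after their values were seen, and 14.3% of genes, so that this count was no larger than the background. All KO LPS cells together were 1.95-fold lower (1.75 to 2.17) than the WT LPS cells with 0 inflammatory UMIs, and KO LPS cells with 0 inflammatory UMIs, which numbered 216, stood at 3095 CPM (2885 to 3316). The part of inflammatory transcripts in the difference between the libraries was not tested, and with 1 library per genotype it cannot be told apart from genotype.

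Member UMIs were also counted per cell. At 500 UMIs per cell, a KO LPS cell held 1.61 member UMIs on average and a WT LPS cell 3.46. At least 3 member UMIs were present in 23.4% of KO LPS cells (exact Clopper-Pearson interval 18.9 to 28.5) and in 60.9% of WT LPS cells (58.3 to 63.4); unthinned, the shares were 58.1% and 88.7%. Droplets of 500 UMIs filled only from barcodes with 100 UMIs or fewer would reach 20.7% and 72.1%. The share in KO LPS therefore did not separate from free RNA and that in WT LPS lay below it, so that these shares cannot be read as expression. The variance of the count over cells was 1.16 times its mean in KO LPS and 1.47 times in WT LPS, where 1 is the value of counting error alone. Without the 3 cells of each library richest in members, 24 members were at least 2-fold lower, against 17.0% of all genes, and the summed log2 ratio was -1.24.

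**Figure D5:**
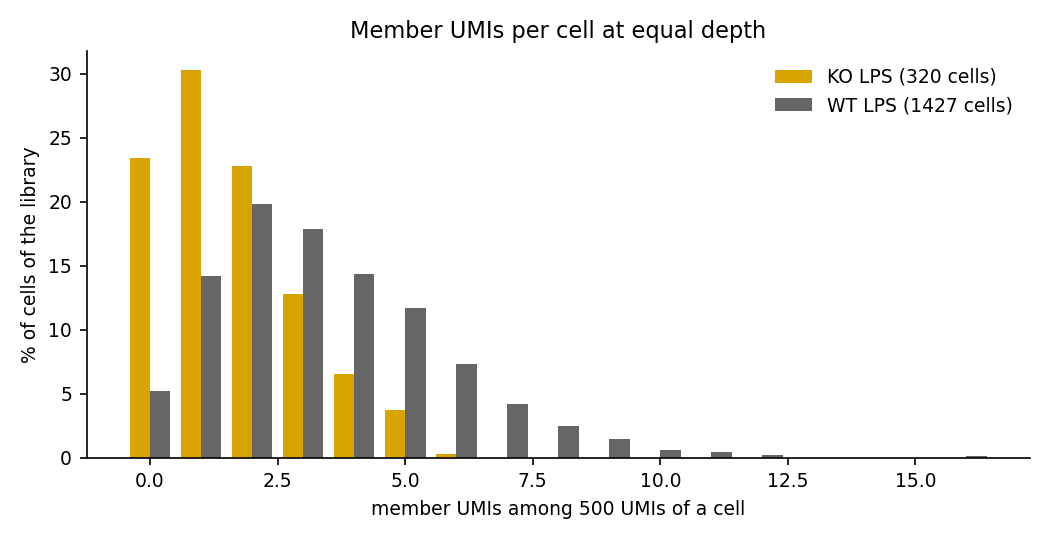
Share of cells (vertical axis, % of the library) by the number of member UMIs among 500 UMIs of the cell (horizontal axis), in 320 cells of KO LPS (yellow) and 1427 cells of WT LPS (grey). No member UMI was drawn in 23.4% of KO LPS cells and 5.19% of WT LPS cells, and the highest count was 6 in KO LPS and 16 in WT LPS.

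Outside the cells, the difference between the libraries was as large as within them. In barcodes with 100 UMIs or fewer, members stood at 3125 CPM in KO LPS (2884 to 3381; 621 UMIs) and at 7458 CPM in WT LPS (7160 to 7766; 2355 UMIs), 2.39-fold lower (2.18 to 2.61). The level in cells was 0.972 times that outside them in KO LPS (0.881 to 1.07) and 0.951 times in WT LPS (0.910 to 0.994). Microglial markers were richer in cells than outside by a factor of 1.13 (1.10 to 1.16) in KO LPS and 1.75 (1.71 to 1.80) in WT LPS, and ribosomal protein genes by 1.65 (1.56 to 1.74) and 2.18 (2.11 to 2.26). Inflammatory genes had factors of 1.08 (0.897 to 1.30) and 2.10 (2.01 to 2.20), and choroid plexus markers of 2.48 (2.10 to 2.94) and 0.125 (0.0750 to 0.208), so that in KO LPS cells were richer in choroid plexus than in microglial markers relative to the barcodes outside. Members were thus not richer in cells than outside them, and in WT LPS they were slightly poorer. The summed member levels of the cells, and their ratio between the libraries, could therefore not be told apart from those of free RNA. Which part of them is expression in the cells was not tested. With 10% of the UMIs of the cells subtracted as free RNA, 24 members were at least 2-fold lower, against 17.8% of all genes. This subtraction could hardly move the summed level, because free RNA held nearly the same member level as the cells, so it is no check on free RNA.

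Other measures of the libraries moved with the result. Mitochondrial transcripts took 3.93% (KO LPS) and 5.16% (WT LPS) of UMIs. Among the lists of other cell types, choroid plexus genes had the largest difference. Leaving out the 32 and 88 cells with 3 or more UMIs of any such list left a summed log2 ratio of -1.19 and 19 members at least 2-fold lower, against 17.6% of all genes. Another protein-coding gene overlaps 10 of the members on the genome, and since no strand setting is known their counts are uncertain. Of the 25 members without such an overlap, 17 were at least 2-fold lower (68.0%, against 16.8% of all genes), with a median log2 ratio of -1.05.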

How the data were processed

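Sorted CD11b+CD45int microglia of KO LPS and WT LPS mice were profiled by Drop-seq, 1 library per genotype. The authors deposited, per library, raw counts (UMIs per gene and barcode) for 9999 barcodes not filtered to cells, with 684738 (KO LPS) and 3063795 (WT LPS) UMIs. The submitters' processing notes name STAR, bcl2fastq 2.0 and the builds mm9 and mm10. The counting program, annotation and strand setting are not given in the sources used here. Genes with missing values in 1 library were read as 0.

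Barcodes with at least 500 UMIs and 100 genes were kept as cells, and doublets were left in. UMIs were summed over cells (Python 3.11.15, numpy 2.4.6, scipy 1.17.1). Levels have exact Poisson and ratios exact conditional binomial intervals (95%), for counting error only. The log2 ratio used a prior count of 0.5, and a gene at 0 was compared with a floor of 3 counts. Lists were set beside all 9085 genes with at least 20 UMIs, without tests, since the cells of 1 library are not replicates and the study's MAST test over cells was left out. Genes alike in UMIs or span stood in for genes matched on expression. Spans, promoters, snoRNA positions and older symbols came from RefSeq (GRCm38.p6). Thinning drew 500 UMIs per cell without replacement.

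Every member is described. Of other lists, the rule named the highest and lowest ratio among genes with at least 50 UMIs, and Park7 and Myc; other genes were named after their values were seen. Members and lists were chosen with earlier results of these data known. Calculations were tested on simulated data.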

Additional observations from a re-analysis of the deposited data

How the results depend on the processing

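The median log2 ratio of the members (-1.17), their summed log2 ratio (-1.22) and the count of 25 members at least 2-fold lower kept their direction under all alternatives run, which changed the cells, the scaling, the filter, the prior count, free RNA and the sexes where each was computed. The count at least 2-fold higher, over members with enough UMIs, was 0 wherever computed. Subtracting free RNA could hardly move the summed level, because free RNA held nearly the same member level as the cells. With every cell thinned to 500 UMIs, 15 of the 28 members with 20 UMIs were at least 2-fold lower, members such as Npm1 (-0.80) and Nop14 (-0.64) fell short of 2-fold, the summed log2 ratio was -1.10, box H/ACA was at -1.09 and the small subunit at -0.67; the cause was not tested. In cells with Xist and no Y-linked UMI the summed log2 ratio was -1.36. In cells with Y-linked and no Xist UMI, 12 of them in KO LPS, it was -0.95, while the median was -2.15, which rests on fitted ratios of members at 0 UMIs in KO LPS; there 29 of 63 other ribosome biogenesis genes with 20 UMIs (46.0%) were at least 2-fold lower, rather than 45 of 138 (32.6%), against 34.2% of all genes, whose median was -0.27, and the large subunit was lowest at -2.88. In the same cells Polr1b stood at 2.91, Noc4l at 2.17, Utp20 at 1.75 and Nolc1 at 0.00, with 1, 1, 2 and 4 UMIs in KO LPS; the first 3 had under 20 UMIs there and are outside the count of higher members. Scaling by the median ratio of all genes gave 24 members at least 2-fold lower (16.4% of all genes), and scaling without mitochondrial, ribosomal protein and the 50 most counted genes gave 27 (18.3%), with a median of all genes of -0.10. A fold of 1.5 gave 32 members, against 27.9% of all genes. At 1000 UMIs per cell, the share of cells with at least 3 member UMIs differed by -33.9 percentage points between the libraries, against -37.5 at 500. The shares at 1000 UMIs were 59.5% in KO LPS and 93.4% in WT LPS. Droplets of free RNA only would reach 60.5% and 97.9%, so that these shares cannot be read as expression either. Of 492 values for single members and role groups under alternatives, 454 stayed within the counting interval of the main value, 36 left it, and 2 that were at least 2-fold lower lost that direction (Nolc1 and Utp20). Counting values under 2-fold too, the sign was lost or turned 14 times, in Polr1b (6), Polr1c (4), Noc4l (2), Nolc1 and Utp20. The removal of cells with markers of other cells and the bound for genes at 0 were chosen after seeing the data. Depth limits the members under 50 UMIs, where a 2-fold difference often lies within the interval. No paired test was run, because each genotype had 1 library, so that library and genotype cannot be told apart also within cells of 1 sex.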
